A study of Mus musculus with 30 samples.

Results

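Acod1 and 8 enzymes of or beside the tricarboxylic acid (TCA) cycle were followed across 30 RNA-seq libraries of mouse bone marrow-derived macrophages. The members, 9 of the 32361 gene IDs in the deposited count table, were the IDs that map to the symbols Acod1, Cs, Idh1, Idh2, Idh3a, Ogdh, Sdha, Sdhb and Mdh2, and every one was found and passed the filter on low counts. The macrophages came from C57BL/6J mice, either wild type (WT) or Ticam2-/-, with 3 animals per genotype and cells of 1 animal in each replicate. Ticam2 encodes TRAM, an adaptor that carries signals from the lipopolysaccharide receptor TLR4. Bone marrow cells of both genotypes were grown in L929-conditioned medium, a source of M-CSF, and were left untreated, or were given lipopolysaccharide (LPS, a TLR4 ligand) at 10 ng/mL or lipoteichoic acid (LTA, a TLR2 ligand) at 100 ng/mL for 2 h or 6 h. The labels' treatment text gives both times but speaks of harvest after 6 h alone, so the times used here are those of the sample labels. These are 10 groups of 3 libraries, and the cells carried their genotype throughout differentiation as well as during treatment.

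Acod1 encodes the mitochondrial enzyme that decarboxylates cis-aconitate, an intermediate of the TCA cycle, to itaconate. Itaconate inhibits succinate dehydrogenase and is made in large amounts by macrophages that sense bacterial products. The cycle condenses acetyl groups with oxaloacetate (citrate synthase, Cs), oxidises isocitrate to 2-oxoglutarate (isocitrate dehydrogenases), then 2-oxoglutarate (Ogdh), succinate (Sdha, Sdhb) and malate (Mdh2). Idh1 is the cytosolic NADP+ enzyme and stands outside the cycle proper, while Idh2 is its mitochondrial NADP+ counterpart and Idh3a is the catalytic subunit of the NAD+ enzyme of the cycle.

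Promoter sequences are shown because Acod1 and the TCA enzymes behaved differently in these libraries. RefSeq windows (GRCm38.p6) of 300 bases, 250 before and 50 after the transcription start, were found for 8 of the 9 members, Idh3a being the exception. The 250 bases before the start are printed for Acod1, for Cs, the TCA enzyme with the highest log2 fold change at 6 h in WT, and for Idh1, the one with the lowest with LPS (with LTA it was Idh2). Cs rose there under TMM, while under total counts it fell with LPS. Capitals mark matches, on either strand, to the TATA box TATAAA, the kappaB-type GGAANTTCC, the GC box GGGCGG or CCAAT, and these motifs were chosen after the sequences had been read. The windows are chr14:103046762-103047011 (plus strand) for Acod1, chr10:128337477-128337726 (plus strand) for Cs and chr1:65186480-65186729 (minus strand) for Idh1.
Acod1: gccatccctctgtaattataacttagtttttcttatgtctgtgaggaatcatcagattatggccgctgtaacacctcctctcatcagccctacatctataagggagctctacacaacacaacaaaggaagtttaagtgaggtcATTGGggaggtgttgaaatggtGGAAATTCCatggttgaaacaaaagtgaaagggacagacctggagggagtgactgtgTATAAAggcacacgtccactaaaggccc
Cs: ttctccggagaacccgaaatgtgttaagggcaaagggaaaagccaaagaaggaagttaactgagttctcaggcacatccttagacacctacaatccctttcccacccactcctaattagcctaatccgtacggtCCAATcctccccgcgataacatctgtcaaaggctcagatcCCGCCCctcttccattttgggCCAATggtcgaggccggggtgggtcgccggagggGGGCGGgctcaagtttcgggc
Idh1: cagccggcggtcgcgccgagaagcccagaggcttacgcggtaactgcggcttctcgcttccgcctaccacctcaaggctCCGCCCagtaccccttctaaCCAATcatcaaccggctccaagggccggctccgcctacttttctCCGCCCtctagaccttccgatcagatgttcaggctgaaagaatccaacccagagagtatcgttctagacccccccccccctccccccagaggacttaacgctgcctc

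The Acod1 window held TATAAA 28 to 23 bases before the start, GGAAATTCC 85 to 77 bases before it, and CCAAT on the other strand 107 to 103 bases before it. TATAAA was present in 13.6% of all 32851 windows, GGAANTTCC in 0.928% and CCAAT in 37.4%. Among the 7 TCA windows neither TATAAA nor GGAANTTCC was found. GGGCGG, present in 35.7% of all windows, was found in 6 of the 7 and not in that of Sdha, which instead held 3 matches to the NRF1-type motif searched (4.60% of all windows). No member's window held the ISRE-type motif searched (3.44%) or the AP-1-type TGANTCA (7.81%). The Acod1 window had 2 CpG dinucleotides, an observed over expected ratio of 0.121, whereas the TCA windows had 15 to 27 and ratios of 0.571 to 0.948 (median of all windows 7 and 0.384). The start positions in RefSeq and in the gene annotation differ by 35 bases for Acod1, 7 for Cs and 21 for Idh1. For the other windows the difference is 42 for Idh2, 26 for Ogdh, 40 for Sdha, 68 for Sdhb and 169 for Mdh2. Idh1 has 2 RefSeq windows and Ogdh 6, and the one nearest the annotated start was used. A match is a description of these letters only.

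**Figure D1:**
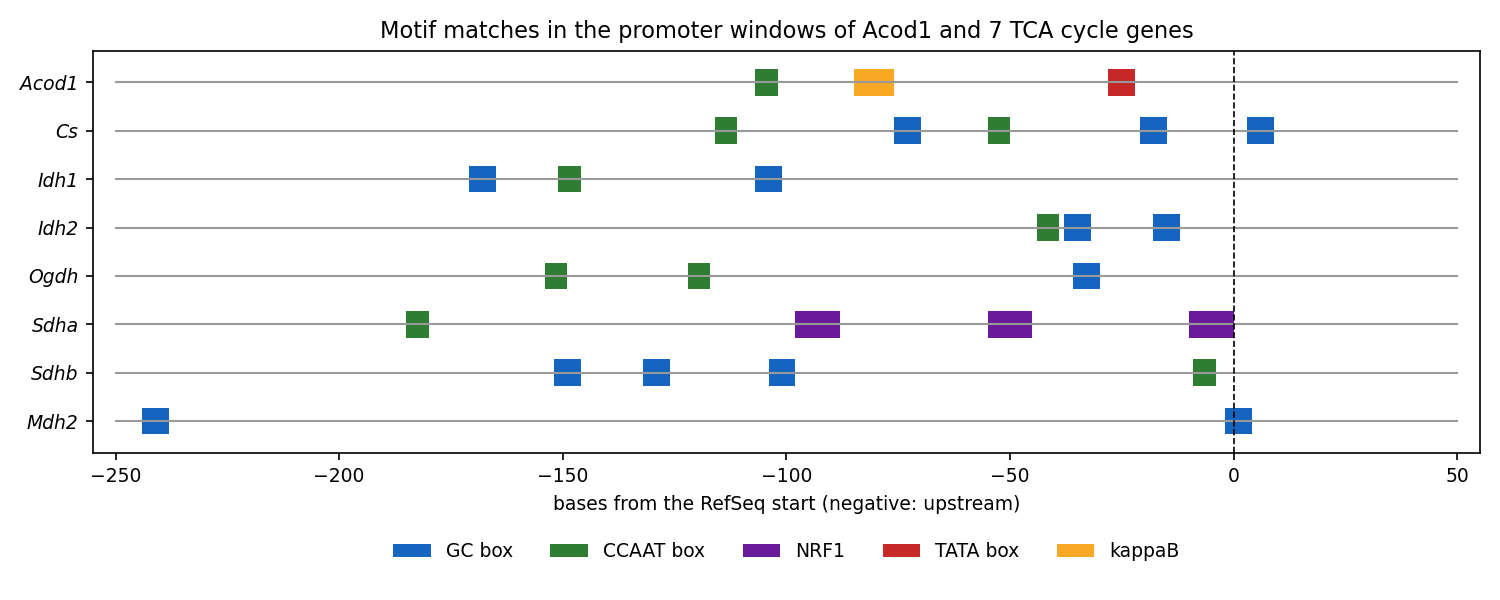
Positions of the motif matches (coloured boxes) in the promoter windows of Acod1 and 7 TCA genes, in bases from the RefSeq start (x axis). Acod1 is the only one of the 8 with a TATA box and a kappaB-type match, and 6 of the 7 TCA genes have a GC box.

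The libraries form 2 sets. Totals ran from 10641070 to 13521660 counts in the 18 libraries that were untreated or treated for 6 h. In the 12 libraries of 2 h they ran from 1334784 to 2658329, and no untreated sample belongs to that set, so a 2 h value set against untreated compares library sets as well as treatments. Erythroid markers (6 genes) summed to 5583 to 7711 CPM (the usual per-library count unit, with every library scaled to a common size) in the first set and to 0 to 0.691 at 2 h, and fibroblast markers (6 genes) to 4.11 to 7.44 and 190 to 346. Macrophage markers (8 of 8 detected) summed to 14126 to 17416 CPM in WT at 6 h and to 22651 to 34006 in all other groups. Most of this sum was Lyz2, at 11713 to 26020 CPM in the first set and 23973 to 30465 at 2 h, so it does not describe the other 7 markers. Neutrophil markers (8 of 9 analysed) summed to at most 25.5 CPM. Ticam2 itself had 120 to 260 counts in WT libraries of the first set against 5 to 26 in Ticam2-/-, and 15 to 28 against 1 to 14 at 2 h.

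Values are given under 2 library scalings. TMM scaling assumes that most genes do not change, and total-count scaling divides by all counts of a library. They differ most in WT at 6 h, where the mean TMM factor was 0.699 with LPS and 0.748 with LTA, against at least 1.00 in the other 8 groups. The median gene of the 15119 tested moved by 0.03 on the log2 scale under TMM and by -0.66 under total counts in the WT response to LPS at 6 h, so a TCA enzyme can pass in opposite directions under the 2 scalings. Tests are edgeR quasi-likelihood tests with Benjamini-Hochberg adjustment over all 15119 genes and a threshold of 0.05, and log2 fold changes carry their standard error. In bulk RNA, fewer cells of a type and less RNA per cell cannot be told apart.

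Acod1 (ENSMUSG00000022126, chr14:103046977-103056573, plus strand) was low at rest and rose steeply in every treated group. In the 3 untreated WT libraries it measured 79.0, 79.9 and 81.9 CPM (TMM), and after 6 h it measured 4369, 4552 and 4388 with LPS and 3853, 3887 and 3862 with LTA. All treated libraries lay above all untreated ones, and with LPS at 6 h Acod1 alone took 0.310% of all counts. The rise was 55.3-fold with LPS (log2 5.79 ± 0.05, adjusted p = 4.5e-62) and 48.2-fold with LTA (log2 5.59 ± 0.05, adjusted p = 1.7e-61). Under total counts the log2 values were 5.09 and 4.99.

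At 2 h the WT libraries measured 637, 652 and 636 CPM with LPS and 575, 518 and 515 with LTA. Acod1 was thus at an intermediate level, log2 3.00 ± 0.05 (adjusted p = 5.2e-48) and 2.74 ± 0.05 (adjusted p = 2e-45) above untreated, a comparison that crosses the 2 library sets. Under total counts these values were 2.98 and 2.74.

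Ticam2-/- macrophages started lower. Their untreated libraries measured 31.8, 28.2 and 28.2 CPM, all below every untreated WT library (log2 -1.45 ± 0.05, adjusted p = 3.7e-29; -1.43 under total counts). After 6 h they measured 972, 948 and 986 with LPS and 978, 970 and 987 with LTA, a rise of 32.9-fold with LPS (log2 5.04 ± 0.05, adjusted p = 7.4e-58) and of log2 5.06 ± 0.05 with LTA (adjusted p = 8e-58). At 2 h they already measured 953, 1054 and 973 with LPS and 882, 902 and 909 with LTA. The Ticam2-/- level at 2 h was therefore close to its level at 6 h, whereas in WT the 6 h means of 4437 and 3867 CPM stood beside 642 and 536 at 2 h. Both comparisons cross the 2 library sets.

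**Figure D2:**
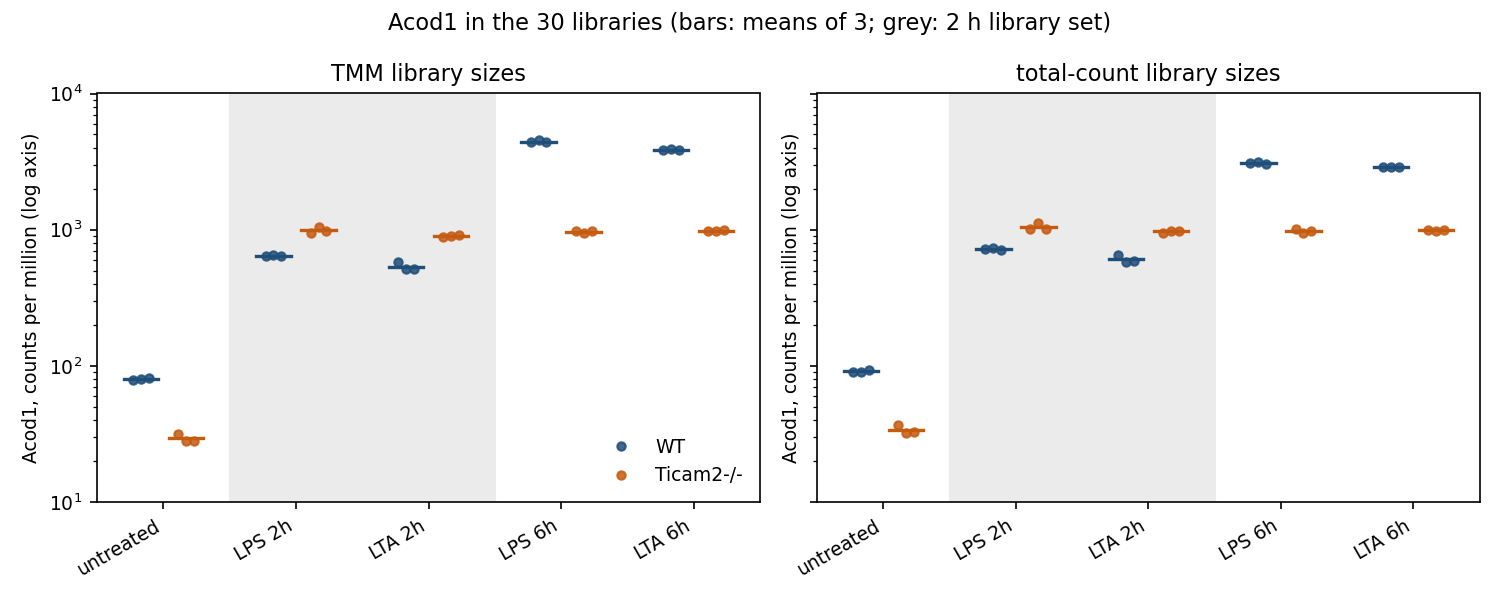
Acod1 in CPM (log axis) in each of the 30 libraries, by condition and genotype, under TMM (left) and total-count (right) library sizes; points are libraries, bars means of 3, grey the 2 h library set. Ticam2-/- libraries lie below WT untreated and at 6 h, and above WT at 2 h, under both scalings.

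The direction of the genotype difference turned between the times. At 6 h Ticam2-/- had less Acod1 than WT, by log2 -2.20 ± 0.04 with LPS (adjusted p = 1e-45; -1.67 under total counts) and -1.98 ± 0.04 with LTA (adjusted p = 2.2e-43; -1.55 under total counts). At 2 h it had more, by 0.63 ± 0.04 with LPS (adjusted p = 1.3e-17; 0.55) and 0.75 ± 0.04 with LTA (adjusted p = 7.3e-20; 0.68). Each of these 4 comparisons stays within 1 library set, and in each the 3 libraries of one genotype lay wholly to one side of the other's. The change of the genotype difference from 2 h to 6 h, a contrast chosen after the values had been seen, was -2.83 ± 0.06 with LPS (adjusted p = 1e-41) and -2.73 ± 0.06 with LTA (adjusted p = 1.7e-40), and -2.22 for both under total counts.

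The genotype difference of a gene outside the members also differed between the 2 h libraries and the untreated and 6 h ones, with another pattern. Time and library set cannot be told apart there. Nnt, the mitochondrial transhydrogenase that C57BL/6J mice are known to carry in a partly deleted form, was higher in Ticam2-/- than in WT untreated (14.0 ± 0.60 against 6.68 ± 0.27 CPM, SD, n = 3; log2 1.06, edgeR adjusted p = 2.2e-12) and with LPS at 6 h (9.37 against 4.46 CPM; log2 1.07, adjusted p = 5.9e-10). At 2 h with LPS it was 10.2 against 10.3 CPM (log2 -0.02 ± 0.23, adjusted p = 1), on 13 to 32 counts a library. The genotype difference in Nnt changed from 2 h to 6 h by 1.10 with LPS (adjusted p = 0.00083). The table lists a further gene ID under the same symbol with nearly the same counts, so the Nnt counts are uncertain. The part of the library set in the turn of Acod1 was not tested. The labels do not say whether the animals of the 2 sets were the same. Ticam2, the deleted gene, was at 0.749 to 5.27 CPM (total counts) in the Ticam2-/- libraries of 2 h and at 10.3 to 15.2 in the WT ones, so it separated the genotypes as labelled in this set too, on few counts.

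The 6 h rise itself was smaller in Ticam2-/- than in WT under TMM. The Ticam2-/- response minus the WT response was -0.75 ± 0.06 with LPS (adjusted p = 9.5e-15) and -0.53 ± 0.06 with LTA (adjusted p = 6.1e-10). Under total counts the LPS value was -0.24 (adjusted p = 0.0007), and the LTA value of -0.12 did not pass (adjusted p = 0.11). At 2 h the same contrast, added after the values had been seen, had the other sign, 2.08 ± 0.07 with LPS and 2.20 ± 0.07 with LTA (adjusted p = 2.6e-31 and 1e-31), and uses untreated libraries of the other set.

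Among the TCA enzymes, Cs (ENSMUSG00000005683, chr10:128337734-128362479, plus strand) was the most raised in WT at 6 h under TMM. Untreated WT libraries measured 176, 177 and 176 CPM, and the 6 h libraries 238, 267 and 257 with LPS and 281, 288 and 290 with LTA. Every treated library lay above every untreated one (log2 0.52 ± 0.05 with LPS, adjusted p = 5.9e-15, and 0.70 ± 0.05 with LTA, adjusted p = 6.8e-20). Under total counts the LPS value turned to -0.17 (adjusted p = 0.00066), a call in the opposite direction, and the LTA value was 0.10 (adjusted p = 0.039, and 0.071 to 0.095 when any untreated WT library or WT LTA replicate 2 or 3 was left out). In Ticam2-/- Cs went from 181 ± 1.5 CPM untreated to 216 ± 5.7 with LPS and 223 ± 3.0 with LTA at 6 h (SD, n = 3; log2 0.26 and 0.30, adjusted p = 3.3e-06 and 1.6e-07), and under total counts by 0.06 (adjusted p = 0.23) and 0.12 (adjusted p = 0.023, and 0.055 to 0.076 without untreated Ticam2-/- replicate 2 or 3 or Ticam2-/- LTA replicate 1 or 3). Ticam2-/- against WT with LPS at 6 h again gave opposite calls, -0.23 ± 0.05 under TMM (adjusted p = 1.9e-05) and 0.29 ± 0.05 under total counts (adjusted p = 1.1e-07).

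Idh1 (ENSMUSG00000025950, chr1:65158616-65186500, minus strand) fell in WT and did so under both scalings. It measured 197, 203 and 194 CPM in untreated WT, 95.7, 109 and 105 with LPS at 6 h and 137, 139 and 142 with LTA. No treated library reached an untreated one, and the LPS libraries were all below the LTA libraries. The fall was log2 -0.94 ± 0.05 with LPS (adjusted p = 5e-25; -1.63 under total counts) and -0.51 ± 0.05 with LTA (adjusted p = 7.1e-15; -1.11 under total counts). In Ticam2-/- the untreated libraries measured 214, 214 and 211 CPM, those with LPS at 6 h 190, 190 and 200 and those with LTA 248, 237 and 243. Idh1 thus fell slightly with LPS (-0.14 ± 0.04, adjusted p = 0.0055; -0.33 under total counts), and with LTA it rose under TMM (0.19 ± 0.04, adjusted p = 0.0002) while under total counts the value was 0.01 (adjusted p = 0.92).

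The genotype difference in Idh1 also turned between the times, opposite in sign to that of Acod1. At 6 h Idh1 was higher in Ticam2-/- than in WT, by 0.91 ± 0.05 with LPS (adjusted p = 3.7e-24; 1.43 under total counts) and 0.80 ± 0.05 with LTA (adjusted p = 1.6e-22; 1.24). At 2 h it was lower, at 97.6, 104 and 114 CPM against 135, 144 and 134 with LPS (-0.38 ± 0.07, adjusted p = 6.4e-05; -0.47) and 151, 134 and 133 against 183, 164 and 174 with LTA (-0.32 ± 0.07, adjusted p = 0.0004; -0.39). The genotypes did not overlap in any of these 4 comparisons. The change from 2 h to 6 h, chosen after the values had been seen, was 1.29 ± 0.09 with LPS (adjusted p = 7.3e-19) and 1.12 ± 0.08 with LTA (adjusted p = 1.5e-17). The Idh1 response to LPS at 6 h differed between the genotypes by 0.80 ± 0.06 (adjusted p = 4e-16) and that to LTA by 0.70 ± 0.06 (adjusted p = 3.7e-14). At 2 h the genotype difference in the response, also chosen afterwards, was -0.49 ± 0.08 and -0.42 ± 0.08 (adjusted p = 1.1e-05 and 5.5e-05). As for Acod1, the 2 times are different library sets and the part of the set was not tested.

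The mitochondrial isocitrate dehydrogenases behaved differently from each other. Idh2 (ENSMUSG00000030541, chr7:80094846-80115392, minus strand), which shares bases with a gene model of at most 7 counts a library, measured 55.1, 51.0 and 52.9 CPM in untreated WT, 37.2, 35.5 and 33.9 with LPS at 6 h and 30.8, 30.0 and 33.3 with LTA. The groups did not overlap, and Idh2 fell in all 8 comparisons of a treatment with untreated under both scalings, at 6 h by log2 -0.58 and -0.76 in WT and by -0.45 and -0.50 in Ticam2-/- (adjusted p from 6.2e-16 to 9.2e-10, TMM). It was higher in Ticam2-/- than in WT at 6 h, by 0.25 ± 0.06 with LPS (adjusted p = 0.00072; 0.77 under total counts, adjusted p = 2.2e-15) and 0.37 ± 0.07 with LTA (adjusted p = 2.8e-06; 0.81, adjusted p = 1.7e-15). The genotype difference in the response passed for LTA under total counts (0.67, adjusted p = 2.6e-09) and under TMM (0.25 ± 0.09, adjusted p = 0.012), but under TMM not when WT LTA replicate 1 or 2 or Ticam2-/- LTA replicate 1 was left out (0.19, 0.16 and 0.20; adjusted p = 0.11, 0.18 and 0.078). For LPS it passed under total counts (0.63, adjusted p = 4.9e-09) and not under TMM (0.13 ± 0.08, adjusted p = 0.2).

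Idh3a (ENSMUSG00000032279, chr9:54586334-54604661, plus strand) differed less from untreated. It measured 36.3, 36.8 and 37.4 CPM in untreated WT and 32.6, 31.6 and 28.5 with LPS at 6 h, a fall of log2 -0.25 ± 0.07 (adjusted p = 0.00095; -0.95 under total counts). Its Ticam2-/- means lay between 35.0 and 41.9 CPM in all 5 conditions. With LPS at 6 h the Ticam2-/- libraries (35.3, 37.4 and 37.3 CPM) lay above the WT ones (0.25 ± 0.07, adjusted p = 0.0015), a call that ended without WT LPS replicate 3 (0.15, adjusted p = 0.088) under TMM. Under total counts the value was 0.77 (adjusted p = 2.8e-14). The genotype difference in the response was 0.32 ± 0.09 under TMM (adjusted p = 0.0029), 0.23 without the same library (adjusted p = 0.051) and 0.83 under total counts (adjusted p = 7.2e-11). WT LTA replicate 3 of 2 h stood apart at 22.1 CPM, and the call against untreated (-0.28 ± 0.11, adjusted p = 0.041) ended without it (-0.07, adjusted p = 0.76) and without untreated WT replicate 3 (-0.28, adjusted p = 0.054).

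Ogdh, the E1 component of the 2-oxoglutarate dehydrogenase complex (ENSMUSG00000020456, chr11:6291633-6356642, plus strand), measured 69.6, 71.8 and 71.1 CPM in untreated WT, 72.3, 75.7 and 67.2 with LPS at 6 h and 80.7, 85.1 and 90.5 with LTA. The LPS libraries overlapped the untreated ones under TMM (0.02 ± 0.06, adjusted p = 0.79) and fell under total counts (-0.68 ± 0.06, adjusted p = 2.3e-15). With LTA the calls were opposite, 0.27 ± 0.05 under TMM (adjusted p = 1.4e-05) and -0.33 ± 0.06 under total counts (adjusted p = 6.4e-07). At 2 h Ogdh was at 45.8 ± 1.3 CPM with LPS and 47.2 ± 7.5 with LTA in WT, below untreated by -0.63 and -0.60 (adjusted p = 1.9e-08 and 1.7e-07) across the library sets. Its genotype difference with LPS at 6 h, 0.19 ± 0.05 (adjusted p = 0.0025; 0.71 under total counts), fell to 0.10 (adjusted p = 0.16) under TMM without WT LPS replicate 3.

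The succinate dehydrogenase subunits, the flavoprotein Sdha (ENSMUSG00000021577, chr13:74322254-74350280, minus strand) and the iron-sulfur protein Sdhb (ENSMUSG00000009863, chr4:140961203-140979193, plus strand), differed little from untreated under TMM and fell in WT at 6 h under total counts. Sdha measured 102, 102 and 95.0 CPM in untreated WT and 100, 107 and 105 with LPS at 6 h, overlapping groups (0.06 ± 0.05, adjusted p = 0.23, or 0.029 at 0.13 without LPS replicate 1; -0.63 under total counts, adjusted p = 3e-17). Sdhb measured 138, 123 and 127 CPM untreated and 113, 113 and 126 with LPS, which passed at -0.14 ± 0.05 (adjusted p = 0.013) although the groups overlapped, and did not pass without untreated replicate 1 or without LPS replicate 1 or 2 (-0.10, -0.08 and -0.07; adjusted p = 0.11, 0.24 and 0.29). Under total counts the Sdhb value was -0.84 (adjusted p = 1.2e-20). With LTA at 6 h in WT Sdhb fell by -0.18 ± 0.05 under TMM (adjusted p = 0.0012, or 0.13 at -0.10 without LTA replicate 2) and by -0.78 under total counts (adjusted p = 1.5e-19). Sdha counts per Sdhb count stayed between 0.606 and 0.947 in all 30 libraries. In Ticam2-/- Sdha went from 110 ± 3.2 to 97.5 ± 4.6 CPM with LPS at 6 h (-0.17 ± 0.05, adjusted p = 0.0011). Its response to LPS differed between the genotypes by -0.23 ± 0.07 under TMM (adjusted p = 0.002) and by 0.27 under total counts (adjusted p = 0.0003), opposite calls.

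Mdh2, the mitochondrial malate dehydrogenase (ENSMUSG00000019179, chr5:135778480-135790398, plus strand), was, with Cs, one of 2 among the 8 TCA enzymes described here that rose in all 4 responses at 6 h under TMM. It measured 198, 203 and 199 CPM in untreated WT and 221, 235 and 230 with LPS at 6 h (0.19 ± 0.04, adjusted p = 0.00015), and under total counts the call was opposite (-0.50 ± 0.04, adjusted p = 1.1e-15). Opposite calls were also made with LTA in WT (0.21 and -0.39, adjusted p = 5.6e-05 and 3.9e-12). In Ticam2-/- the rise was 0.28 ± 0.04 with LPS (adjusted p = 3.6e-07) and 0.21 ± 0.04 with LTA (adjusted p = 6.1e-05), and did not pass under total counts (0.08 and 0.03, adjusted p = 0.082 and 0.57). At 2 h Mdh2 was at 129 ± 4.4 and 126 ± 1.3 CPM in WT, below untreated by -0.63 and -0.67 (adjusted p = 2e-13 and 1.1e-13), so under TMM its place relative to untreated turned between the 2 library sets. Under total counts it did not turn in WT, at -0.65 with LPS and -0.67 with LTA at 2 h beside -0.50 and -0.39 at 6 h.

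**Figure D3:**
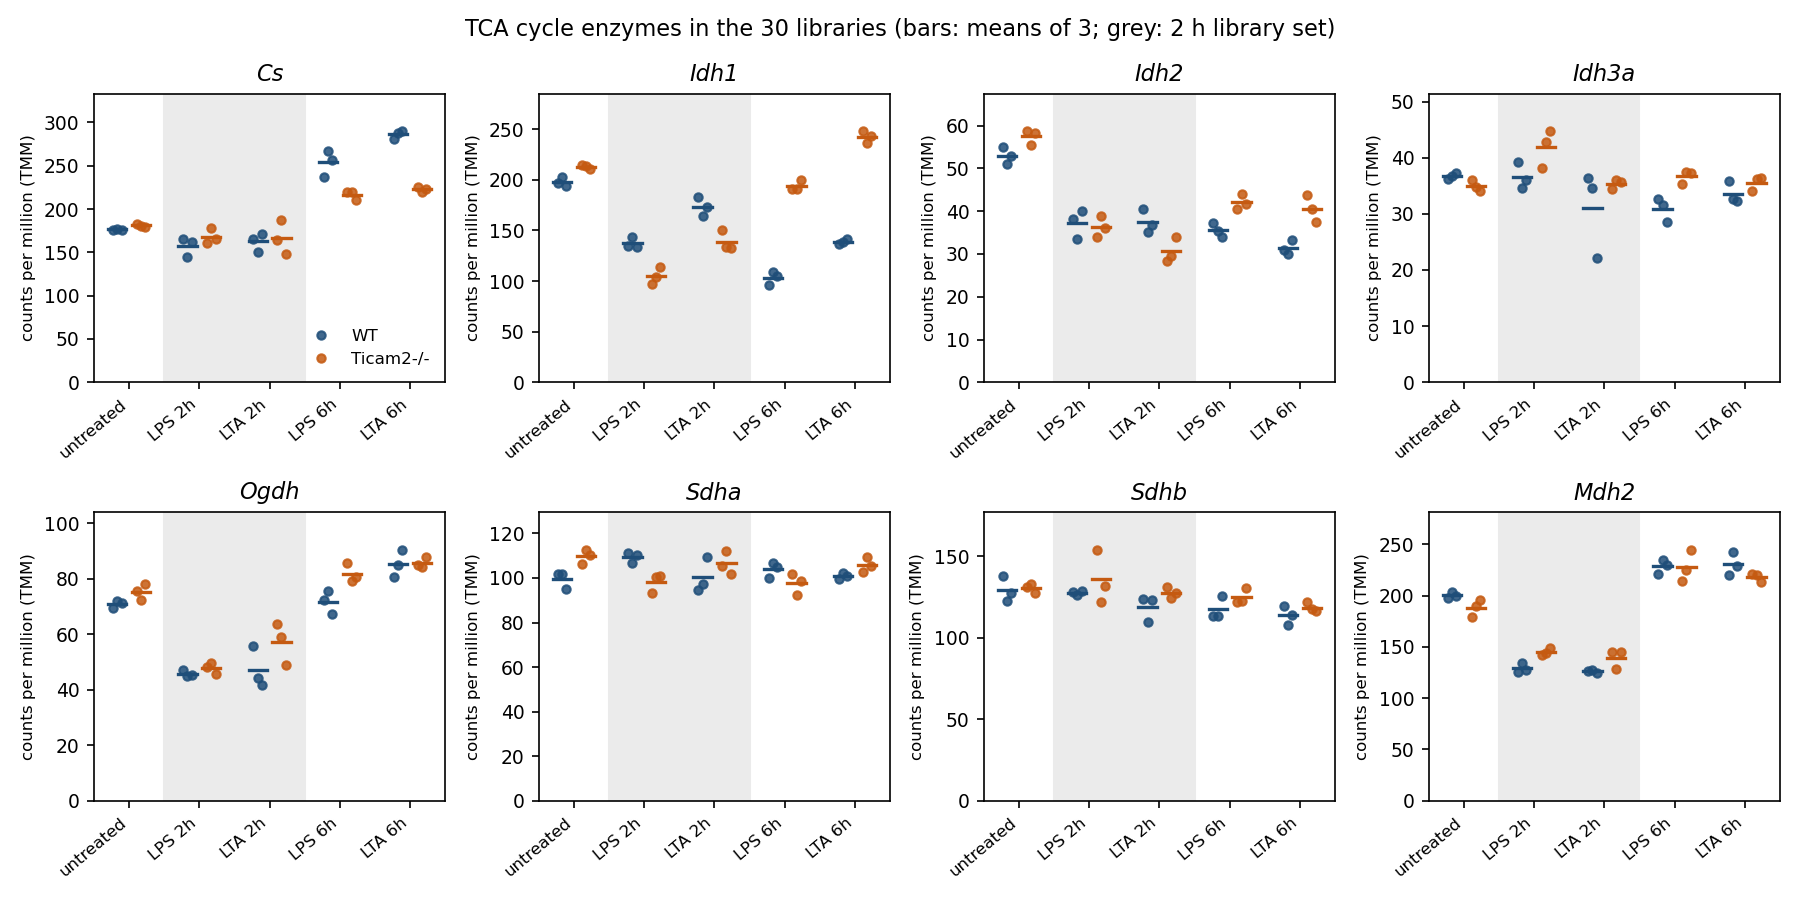
The 8 TCA enzymes in CPM (TMM, axes from 0) in each of the 30 libraries; points are libraries, bars means of 3, grey the 2 h library set. For Idh1 at 6 h the WT libraries lie between 95.7 and 142 and the Ticam2-/- libraries between 190 and 248, while Sdha and Sdhb differ little between groups on this scale.

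Counts of the 8 TCA enzymes are read against the share of all genes called under the same scaling. In the WT response to LPS at 6 h, 2 rose and 4 fell under TMM, where 36.6% of all genes tested rose and 36.1% fell, and 0 rose and 8 fell under total counts (16.2% and 63.7%). With LTA at 6 h 3 rose and 3 fell under TMM (35.4% and 35.9%), and 1 rose and 7 fell under total counts (15.7% and 62.3%). In Ticam2-/- at 6 h 2 rose and 3 fell with LPS under TMM (25.7% and 26.6%), and 4 rose and 2 fell with LTA (25.7% and 26.5%). Under total counts these were 0 and 4 with LPS (15.6% and 41.9%) and 1 and 4 with LTA (16.4% and 41%). Their median log2 fold change in the WT response to LPS was -0.06 under TMM beside 0.03 for all genes, and -0.76 beside -0.66 under total counts.

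Ticam2-/- against WT with LPS at 6 h gave 4 TCA enzymes higher and 1 lower under TMM (32.7% and 30.6% of all genes), and 8 higher and 0 lower under total counts (61.3% and 14.5%). With LTA at 6 h the counts were 2 and 1 under TMM (30.5% and 28%) and 7 and 0 under total counts (58.9% and 12.2%). The genotype difference in the response was positive for 2 and negative for 2 with LPS (27% and 23.5%) and for 2 and 1 with LTA (24.8% and 20.1%), and under total counts for 8 and 0 (55.9% and 10.9%) and 7 and 0 (52.7% and 8.35%). Untreated, 1 was higher in Ticam2-/- and 0 lower (5.98% and 7.47%), namely Sdha at 0.14 ± 0.04 (adjusted p = 0.023), a call that ended without WT replicate 3 or without Ticam2-/- replicate 2 or 3 (adjusted p = 0.15, 0.13 and 0.071). At 2 h 0 were higher and 1 lower with either ligand (9.11% and 7.26% with LPS, 7.82% and 5.21% with LTA), and the 1 was Idh1, the cytosolic enzyme. Under total counts Sdha was also lower with LPS at 2 h (-0.24 ± 0.08, adjusted p = 0.026), a call that ended without WT replicate 1 or 3 or Ticam2-/- replicate 1 or 2 (adjusted p = 0.068 to 0.093), which made 0 higher and 2 lower (6.04% and 9.82% of all genes). Untreated, total counts gave 2 higher and 0 lower (6.96% and 6.3%), Sdha at 0.16 and Idh1 at 0.13 (adjusted p = 0.0091 and 0.03). The Sdha call ended without 2 of the 6 libraries (WT replicate 3 and Ticam2-/- replicate 2, adjusted p = 0.094 and 0.062) and the Idh1 call without WT replicate 1 or 3 or any Ticam2-/- library (adjusted p = 0.062 to 0.14).

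Against untreated, across the library sets, 0 TCA enzymes were higher and 5 lower with LPS at 2 h in WT (19.5% and 25.5%) and 0 and 5 with LTA (19% and 23.9%). In Ticam2-/- 1 was higher and 5 lower with LPS (26.8% and 30.4%), and 0 and 4 with LTA (26.3% and 29.7%). Total counts gave 0 and 6 with LPS (22.4% and 36%) and 0 and 5 with LTA (23.2% and 33.7%) in Ticam2-/-. Idh1, Idh2, Ogdh and Mdh2 were lower in all 4 of these comparisons.

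Over the 8 enzymes and 19 contrasts, the scalings gave the same call in 52 cases, no call under either in 54, a call under TMM alone in 9, a call under total counts alone in 30 and opposite calls in 7. The same tally was not made over all genes, so it is not read as a trait of these enzymes. All genes shifted too: in WT with LPS at 6 h 63.7% fell under total counts and 36.1% under TMM. The opposite calls were those of Cs with LPS at 6 h (response in WT, Ticam2-/- against WT, and the difference of responses), of Sdha in the difference of responses to LPS, of Ogdh with LTA at 6 h in WT, and of Mdh2 with either ligand at 6 h in WT. Acod1 kept its direction under both scalings in every contrast it passed.

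**Figure D4:**
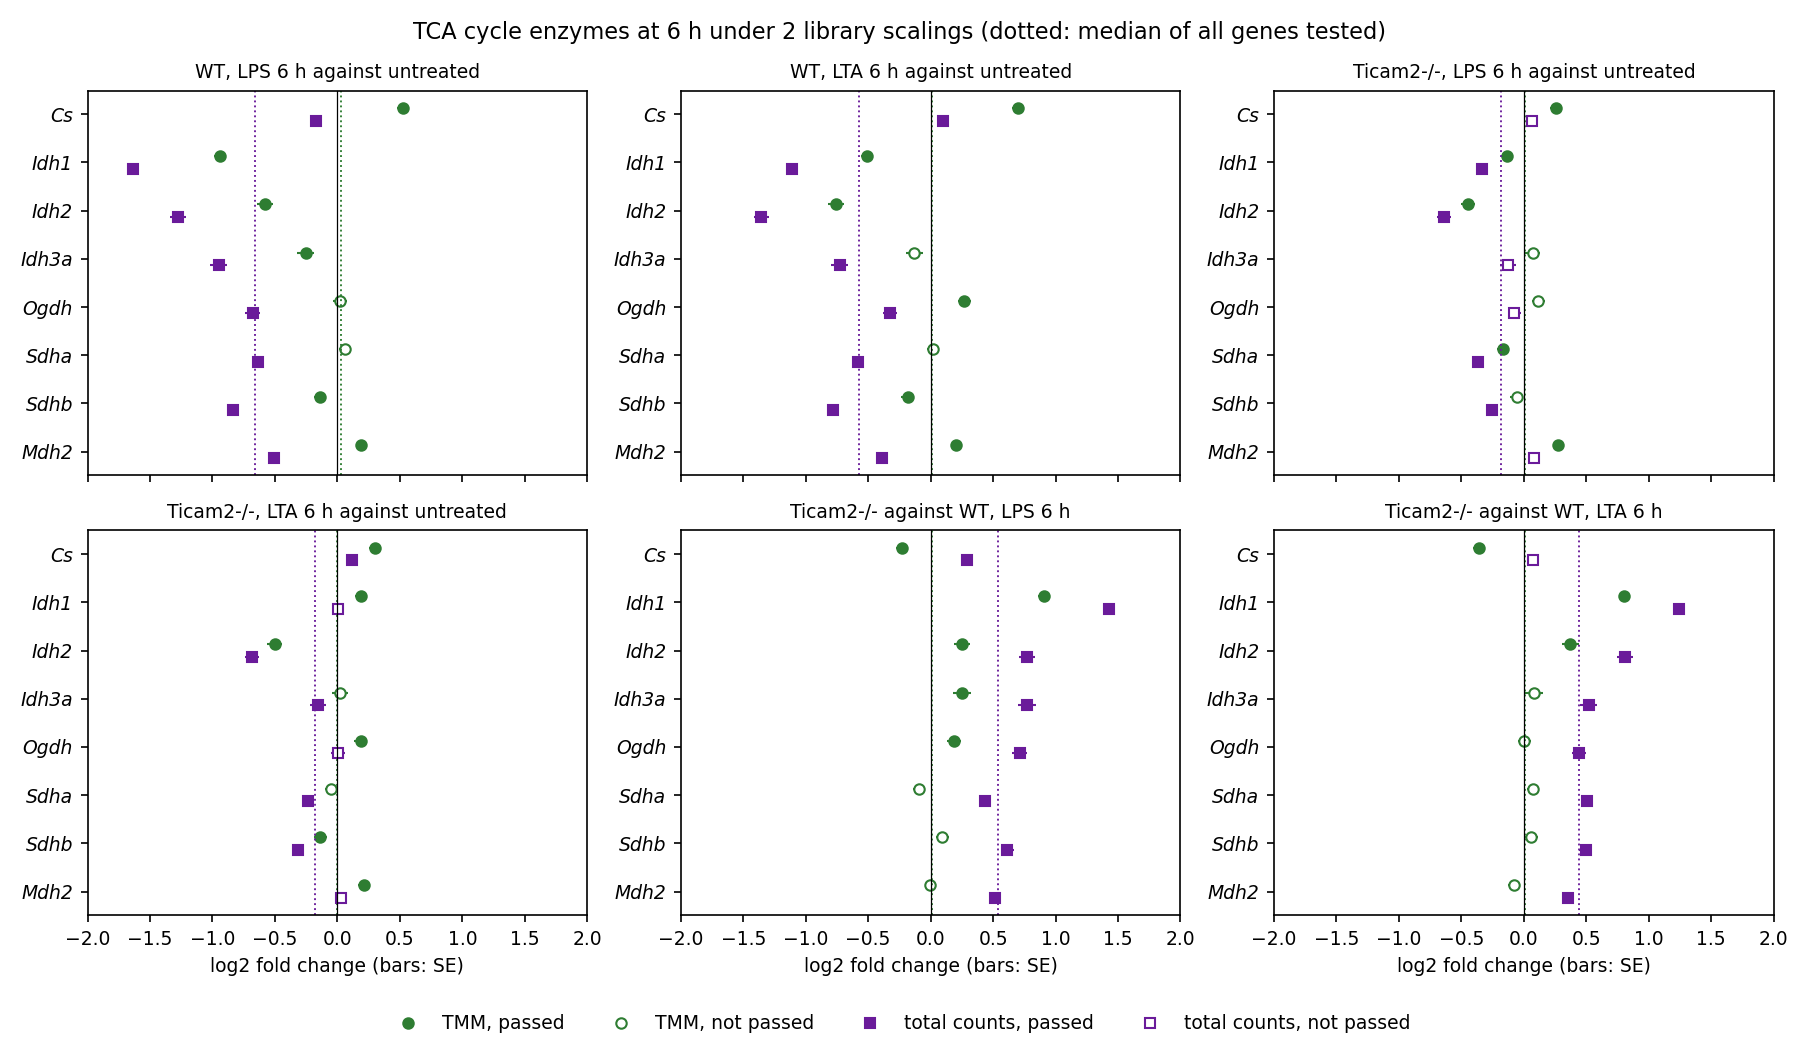
Log2 fold change (x axis, bars SE) of the 8 TCA enzymes in the 6 comparisons at 6 h, under TMM (green circles) and total counts (purple squares); filled symbols passed the adjusted threshold of 0.05 and dotted lines are the median of all genes tested. In WT the purple values are shifted to the left with the median, from 0.03 to -0.66 with LPS. Cs, Ogdh and Mdh2 have filled symbols on opposite sides of 0 in at least 1 comparison, and some other pairs on opposite sides, as of Sdha, include an open symbol.

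Ratios of counts within a library do not depend on the scaling and are given without a test. Acod1 counts per summed count of the 8 TCA enzymes were 0.0814, 0.0827 and 0.0860 in untreated WT, 4.80, 4.67 and 4.61 with LPS at 6 h and 3.84, 3.78 and 3.74 with LTA. In Ticam2-/- they were 0.0323, 0.0284 and 0.0284 untreated, 0.963, 0.937 and 0.945 with LPS and 0.904, 0.912 and 0.929 with LTA. WT macrophages thus went from a small fraction of the TCA counts to an excess of Acod1, while Ticam2-/- macrophages ended near parity. The ratio was 56.4-fold above untreated with LPS and 45.5-fold with LTA in WT, and by log2 5.00 and 4.95 in Ticam2-/-. At 6 h it was 4.95-fold lower in Ticam2-/- than in WT with LPS and 4.14-fold lower with LTA, and untreated 2.81-fold lower. At 2 h it was higher in Ticam2-/-, 1.28 ± 0.065 against 0.822 ± 0.023 with LPS and 1.12 ± 0.051 against 0.672 ± 0.028 with LTA (SD, n = 3), without overlap of libraries.

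Idh1 counts per Cs count were lower at 6 h than in untreated WT libraries. The ratio was 1.12 ± 0.026 in untreated WT, 0.407 ± 0.0038 with LPS at 6 h and 0.485 ± 0.0040 with LTA (SD, n = 3). In Ticam2-/- it was 1.18 ± 0.0042 untreated, 0.895 ± 0.049 with LPS and 1.09 ± 0.011 with LTA. The order of the genotypes was the other way at 2 h, 0.879 ± 0.10 in WT and 0.626 ± 0.056 in Ticam2-/- with LPS, and 1.07 ± 0.051 and 0.842 ± 0.11 with LTA. Idh2 per Cs went from 0.300 ± 0.012 to 0.140 ± 0.014 with LPS at 6 h in WT and from 0.318 ± 0.0095 to 0.195 ± 0.0085 in Ticam2-/-.

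**Figure D5:**
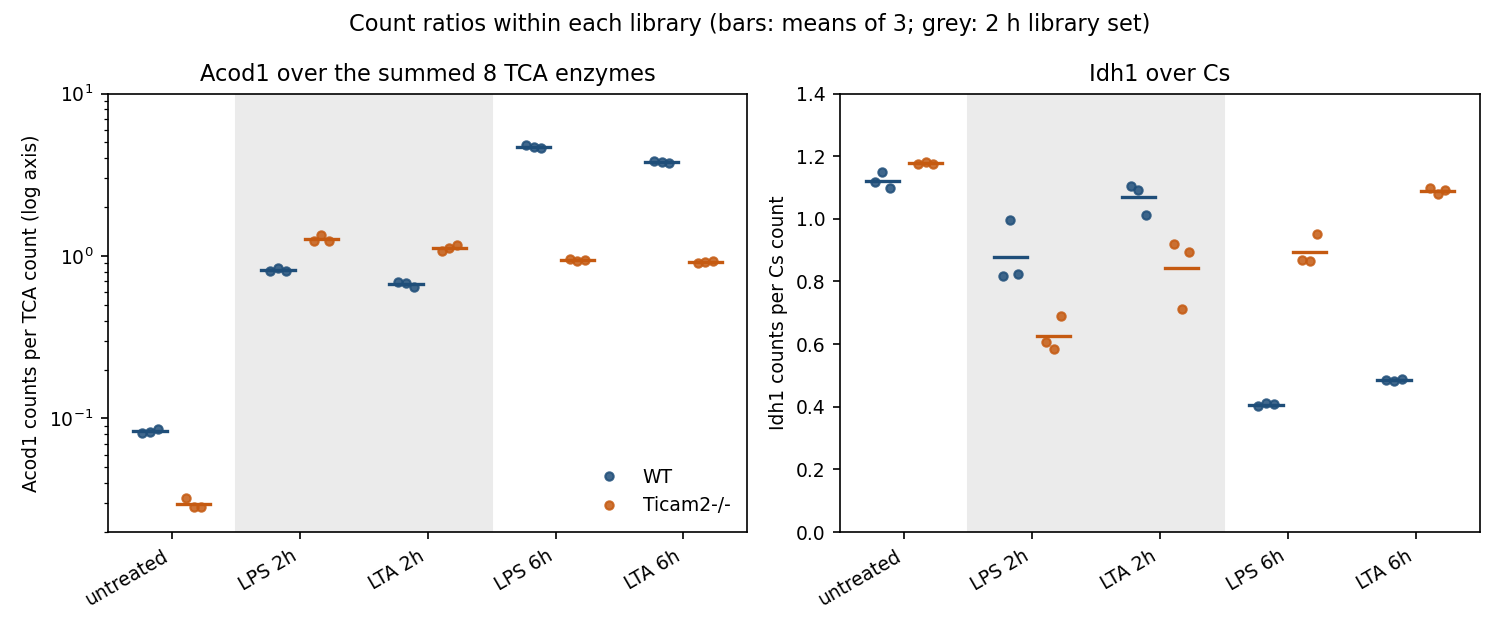
Ratios of counts within each of the 30 libraries: Acod1 over the summed 8 TCA enzymes (left, log axis) and Idh1 over Cs (right, axis from 0); points are libraries, bars means of 3, grey the 2 h library set. At 6 h the Acod1 ratio is 3.74 to 4.80 in WT and 0.904 to 0.963 in Ticam2-/-.

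The ligands, given at different doses, were compared as exposures. In WT at 6 h Acod1 was slightly higher with LPS than with LTA (0.20 ± 0.04, adjusted p = 2.1e-05), and under total counts the value was 0.10 (adjusted p = 0.026; 0.050 to 0.099 when LPS replicate 1 or 2 or any LTA library was left out). At 2 h the WT difference was 0.26 ± 0.05 (adjusted p = 0.00012). In Ticam2-/- the differences of -0.02 ± 0.04 at 6 h (adjusted p = 0.92) and 0.15 ± 0.04 at 2 h (adjusted p = 0.058) did not pass, and the 2 h value passed without LPS replicate 1 (0.18, adjusted p = 0.027). Idh1 was lower with LPS than with LTA in every setting, by log2 -0.43 ± 0.05 in WT at 6 h (adjusted p = 1.3e-10), -0.34 ± 0.07 in WT at 2 h (adjusted p = 0.0011), -0.33 ± 0.04 in Ticam2-/- at 6 h (adjusted p = 6.4e-07) and -0.40 ± 0.07 in Ticam2-/- at 2 h (adjusted p = 0.00021). All 3 LPS libraries lay below all 3 LTA libraries each time, and every value passed under total counts too.

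Idh1, the cytosolic enzyme among the 8, was the only one of them lower with LPS than with LTA in 3 of the 4 settings. In WT at 2 h 1 of 8 was lower and 0 higher, where 0.0992% of all genes were lower and 1.1% higher. The same held in Ticam2-/- at 6 h (1.32% and 1.34%) and in Ticam2-/- at 2 h (0.258% and 1.14%). In WT at 6 h 3 were lower (14% of all genes) and 1 higher (17.9%). The 3 were Idh1, Ogdh (-0.25 ± 0.06, adjusted p = 0.00025) and Cs (-0.17 ± 0.05, adjusted p = 0.0019). Idh2, the 1 that was higher (0.18 ± 0.07, adjusted p = 0.048), did not pass under total counts (0.08, adjusted p = 0.43) or when any WT LPS library or WT LTA replicate 1 or 2 was left out (adjusted p = 0.056 to 0.24).

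Per kilobase of exon, which allows genes to be compared with each other, untreated WT levels (TMM CPM per kb) ran from Idh1 (71.4), Sdhb (57.8) and Mdh2 (56.2) through Acod1 (30.6), Cs (30.5), Sdha (24.1) and Idh2 (20.5) and Ogdh to Idh3a (7.26). By this measure Acod1 and Cs were at similar levels in untreated WT, while in untreated Ticam2-/- Acod1 was at 11.2 and Cs at 31.3. In CPM, without division by length, untreated WT had 80.3 for Acod1 and 176 for Cs. With LPS at 6 h in WT Acod1 reached 1691, far above Mdh2 (64.2), the highest of the other 8. In Ticam2-/- with LPS at 6 h Acod1 reached 369 and the highest of the others was Idh1 (69.9). Sdhb stood well above Sdha in every group although both are subunits of one enzyme.

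The remaining enzymes of the cycle were read from a list of 11 subunits. In the WT response to LPS at 6 h 3 rose and 6 fell under TMM, where 36.6% and 36.1% of all genes did, and 2 rose and 9 fell under total counts (16.2% and 63.7%; medians -0.15 and -0.85, beside 0.03 and -0.66 for all genes). Dld and Dlst, the E3 and E2 components that work with Ogdh, rose in WT by 1.03 ± 0.05 and 0.88 ± 0.06 (adjusted p = 5.3e-25 and 1.3e-20; 0.33 and 0.19 under total counts, both passing). They were lower in Ticam2-/- with LPS at 6 h under TMM, by -0.58 for Dld and -0.28 for Dlst, while under total counts Dld did not pass (-0.05, adjusted p = 0.33) and Dlst was called the other way (0.24, adjusted p = 6.3e-05). Fh1 (fumarate hydratase) fell in WT by -0.64 ± 0.08 (adjusted p = 8.7e-10; -1.34) and was higher in Ticam2-/- by 0.35 ± 0.09 (adjusted p = 0.00028; 0.88). Suclg1, a succinyl-CoA ligase subunit, fell in WT by -0.24 ± 0.06 (adjusted p = 0.00019; -0.94) and was higher in Ticam2-/- by 0.27 ± 0.06 (adjusted p = 5.7e-05; 0.79).

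Genes that feed or drain the cycle were counted by list, Ticam2-/- against WT being with LPS at 6 h. The same shares of all genes apply to the WT response, and for Ticam2-/- against WT they were 32.7% higher and 30.6% lower under TMM and 61.3% and 14.5% under total counts. Of 12 tested genes of pyruvate entry, 4 rose and 5 fell in WT with LPS at 6 h under TMM (36.6% and 36.1% of all genes), and 0 rose and 10 fell under total counts (16.2% and 63.7%). Mpc1, a subunit of the mitochondrial pyruvate carrier, rose by 0.71 ± 0.06 (adjusted p = 4.5e-17), a call that total counts did not give (0.01, adjusted p = 0.84). Pdk3, a kinase that inhibits pyruvate dehydrogenase, rose by 0.83 ± 0.08 under TMM (adjusted p = 8.9e-13; 0.13 under total counts, adjusted p = 0.16) and was lower in Ticam2-/- by -0.99 ± 0.09 (adjusted p = 6.2e-15; -0.47, adjusted p = 4.7e-06). Of 10 genes of citrate export and the malate-aspartate shuttle, 3 rose and 6 fell in WT under TMM (0 and 9 under total counts). In Ticam2-/- 8 were higher and 0 lower under TMM, beside 32.7% and 30.6% of all genes, and 10 and 0 under total counts, beside 61.3% and 14.5%. Slc25a13, the aspartate-glutamate carrier, went from 34.3 ± 2.6 to 8.96 ± 0.93 CPM in WT (-1.93 ± 0.10, adjusted p = 1.8e-23) and from 37.2 ± 1.1 to 20.7 ± 1.1 in Ticam2-/- (SD, n = 3), a genotype difference of 1.20 ± 0.11 (adjusted p = 1.3e-13; 1.73).

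Glul (glutamine synthetase), from the list of glutamine entry, fell by -1.34 ± 0.07 in WT with LPS at 6 h (adjusted p = 2.2e-24; -2.04 under total counts). Of the 4 assembly factors of succinate dehydrogenase, 0 rose and 3 fell under TMM, where 36.6% and 36.1% of all genes did, and 0 and 4 under total counts (16.2% and 63.7%). Sdhaf4 fell by -0.74 ± 0.07 (adjusted p = 4.8e-14; -1.44). Sdhaf1, at 6.58 ± 0.75 CPM untreated and 2.73 ± 0.30 with LPS in WT, was higher in Ticam2-/- by 1.17 ± 0.18 (adjusted p = 1.4e-07; 1.69). Of 3 genes for the breakdown or export of itaconate, Abcg2, a transporter reported to export it, fell in WT by -1.05 ± 0.19 (adjusted p = 2.5e-06; -1.75). Auh, a hydratase, rose under TMM (0.24 ± 0.09, adjusted p = 0.016) and fell under total counts (-0.46, adjusted p = 7.5e-06). Of mitochondrial NADPH genes, Me2 (malic enzyme) fell by -0.75 ± 0.10 (adjusted p = 9.8e-10; -1.44). The 13 mitochondrially encoded genes took 1.32 to 1.49% of counts in WT at 6 h, 1.76 to 1.87% in Ticam2-/- at 6 h and 2.09 to 2.33% in all other libraries.

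The genes whose log2 CPM followed Acod1 most closely over the 18 untreated and 6 h libraries, among 9012 ranked, were Cebpb, Ehd1, Rab20, Mmp14 and Igsf6, each with r = 0.998. These libraries share groups and depth, so r is a description. Over the 12 libraries of 2 h the same genes had r of 0.943, 0.983, 0.876, 0.939 and 0.909. Cebpb, a bZIP transcription factor, went from 533 to 4341 CPM with LPS at 6 h in WT and from 379 to 1940 in Ticam2-/-. Their levels in the 18 libraries follow from this choice and are given with no test. At 2 h, in libraries that the choice did not use, all 5 were higher in Ticam2-/- than in WT with LPS. The log2 values were 0.68 for Cebpb, 1.00 for Ehd1, 0.56 for Rab20, 1.16 for Mmp14 and 0.97 for Igsf6 (edgeR adjusted p from 1.8e-25 to 2.8e-05). Of all genes tested, 9.11% were higher and 7.26% lower. With LTA at 2 h the values were 0.66, 1.03, 0.43, 0.86 and 0.78 in the same order (edgeR adjusted p from 3.7e-25 to 0.0024). There 7.82% of all genes were higher and 5.21% lower. Among the members, r with Acod1 over the 18 libraries was 0.927 for Cs, 0.884 for Mdh2, 0.382 for Ogdh, -0.288 for Sdha, -0.506 for Idh3a, -0.648 for Idh1, -0.743 for Sdhb and -0.956 for Idh2. Over the 12 libraries of 2 h, r in the same order was 0.279, 0.842, 0.426, -0.146, 0.613, -0.808, 0.519 and -0.381. Idh3a and Sdhb thus changed sign, and Cs was far lower. Every r here is of TMM values, and r under total counts was not computed.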

How the data were processed

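RNA-seq libraries were grouped by the sample labels, with 3 libraries in each of 10 groups and 0 columns left out. The authors deposited expected counts per gene: 25.2% of values were not whole numbers, and all were rounded for the tests. Named in the submitters' processing notes are fastp (0.24.0), STAR (2.7.11), SAMtools (1.22.1), Subread (2.1.1) with featureCounts, and GRCm38 and mm10 as builds. Order, annotation and strand setting: not given in the sources used here. GENCODE M21 supplied symbols for 26304 of 32361 IDs and the coordinates (GRCm38).

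The edgeR 4.0.16 model in R 4.3.3 (glmQLFit, robust, 1 coefficient per group, 20 residual degrees of freedom) followed filterByExpr (minimum count 10, minimum total 15), which left 15119 genes, once with TMM and once with total-count library sizes. The common biological coefficient of variation was 0.041. The fits were tested on simulated data with as many genes raised as lowered. Such data hold no shift like that of WT at 6 h, so they cannot tell which of the 2 scalings is nearer the truth there. The 9 members, the gene lists and the motifs were chosen with earlier results of these data known. The 4 contrasts of times and of responses at 2 h were added after values had been seen. Named genes are all members, the gene of smallest p in each other list (3 for the TCA cycle) in the WT response and in Ticam2-/- against WT with LPS at 6 h, Nnt and the 5 genes most correlated with Acod1 (log2 CPM, prior count 2), and some genes that this rule names are not reported here. DESeq2 1.42.0, RLE size factors, no filter, fits within a library set, a replicate block and omission of each library were the alternatives. Each replicate is 1 animal, so p-values measure the spread between animals and their cultures. The labels name 3 animals per genotype for 5 groups and do not tie a replicate number to an animal across groups. Mpo and Serpina1a of the marker lists were not analysed here.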

Additional observations from a re-analysis of the deposited data

Results flagged for a closer look

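The differences below between groups passed the edgeR quasi-likelihood test of the difference itself (TMM, Benjamini-Hochberg adjusted p under 0.05). The response at 6 h in Ticam2-/- minus that in WT was -0.75 with LPS and -0.53 with LTA for Acod1, -0.27 and -0.40 for Cs, and 0.80 and 0.70 for Idh1, on the log2 scale. It was 0.25 with LTA for Idh2, 0.32 with LPS for Idh3a and -0.23 with LPS for Sdha. Under total counts the values of Cs and Sdha with LPS were called in the opposite direction, those of Acod1 and Cs with LTA did not pass, and the others kept their direction.

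Contrasts added after the values had been seen gave, for the response at 2 h in Ticam2-/- minus that in WT, 2.08 with LPS and 2.20 with LTA for Acod1, and -0.49 and -0.42 for Idh1. The genotype difference at 6 h minus that at 2 h was -2.83 with LPS and -2.73 with LTA for Acod1, and 1.29 and 1.12 for Idh1. Each of these 8 values spans the 2 library sets, whose part was not tested.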

How the results depend on the processing

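Calls on Acod1 kept their direction under every alternative run. Acod1 with LPS against LTA at 2 h in Ticam2-/- passed with RLE size factors (0.16, adjusted p = 0.043) and with DESeq2 (0.16, adjusted p = 0.00053), and ran from 0.10 to 0.18 when 1 library was left out. In WT at 6 h under total counts it did not pass without a filter (0.10, adjusted p = 0.06), and ran from 0.088 to 0.111 on omission of a library. The cause was not tested.

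Counts of TCA enzymes of 8 called moved as follows under TMM. With RLE size factors and with DESeq2, 1 was higher in WT with LPS at 2 h and 3 were lower with LTA, 2 were lower in Ticam2-/- than in WT with either ligand at 6 h, and the genotype difference with LTA at 6 h was negative for 2 and positive for 1. Over all genes, Ticam2-/- against WT with LPS at 6 h had 4951 higher and 4625 lower in the main fit. These were 4335 and 5238 with RLE size factors, and 4082 and 4955 with DESeq2. With LTA they were 4604 and 4237, then 3980 and 4994, and 3721 and 4622. The genotype difference with LTA was positive for 3752 and negative for 3037, then 3209 and 3697, and 2871 and 3450. In WT at 2 h, 2949 were higher with LPS and 3620 lower with LTA, then 3286 and 3221, and 3243 and 2891. DESeq2 gave 2 higher in untreated Ticam2-/-, where 710 of all genes were higher, beside 904 in the main fit. Without a filter, 0 were higher in Ticam2-/- with LPS at 2 h, 0 in untreated Ticam2-/- against WT, and the difference with LPS at 6 h was negative for 1. Over all genes, low counts included, these were 3674, 841 and 3140, beside 4051, 904 and 3560 in the main fit. For LPS against LTA at 6 h in WT, 0 were higher without a filter, within the library set, with the replicate block and with DESeq2. Of all genes, 2642, 2731, 2704 and 2521 were higher there, beside 2699 in the main fit. Under total counts without a filter, 0 rose in WT with LTA at 6 h, 1 was higher in untreated Ticam2-/- and 1 was lower in Ticam2-/- than in WT with LPS at 2 h. The same counts over all genes were 2575, 967 and 1354, beside 2375, 1052 and 1485 in the main fit.

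For the fits that left out 1 library, counts over all genes were not kept. The ranges below therefore have no share of all genes beside them and only show how far these counts moved. Leaving out 1 library, the TMM counts ran from 0 to 1 for enzymes higher in Ticam2-/- with LPS at 2 h, in untreated Ticam2-/-, in Ticam2-/- against WT with LTA at 2 h and with LPS against LTA at 6 h in WT. They ran from 1 to 2 for those lower in Ticam2-/- with LTA at 6 h, those lower in Ticam2-/- than in WT with either ligand at 6 h and both genotype differences that were positive, and from 2 to 5 for those higher in Ticam2-/- with LPS at 6 h. Under total counts they ran from 0 to 1 for enzymes that rose in WT with LTA or in Ticam2-/- with either ligand at 6 h, from 0 to 2 for untreated Ticam2-/-, from 1 to 2 for those lower in Ticam2-/- with LPS at 2 h and with LPS against LTA at 6 h, and from 3 to 5 for those lower with LPS against LTA at 6 h in WT.

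The log2 ratio of Acod1 to Cs alone differed from untreated at 6 h by 5.27 (LPS) and 4.89 (LTA) in WT and by 4.79 and 4.76 in Ticam2-/-, and between genotypes by -1.97 (LPS) and -1.62 (LTA) at 6 h and 0.53 with LPS at 2 h. Against the median of the 8 enzymes these were 5.92, 5.67, 5.16 and 5.15, with genotype differences at 2 h of 0.84 (LPS) and 0.65 (LTA).

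Same-numbered libraries of 1 genotype deviated together (r over 0.1) in 4 of 18 pairs of the deeper set and 0 of 6 at 2 h, so the numbers were not shown to pair libraries. With the replicate block Acod1 rose by 5.79 in WT with LPS at 6 h, and it moved no count by over 1.5 times other than the one named above. It ended the calls of Idh2 for LPS against LTA at 6 h in WT (0.18, adjusted p = 0.051) and, under total counts, of Idh3a with LTA at 2 h in WT (-0.27, adjusted p = 0.05), and no other call of a member. Over all genes, the WT response to LPS at 6 h had 5534 higher and 5452 lower under TMM, 6049 and 4986 with RLE size factors, and 2450 and 9630 under total counts. Depth limits the 2 h set, where members had as few as 45 counts (Idh3a).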
